A study of Mus musculus with 6 samples.

Results

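Annexins and S100 proteins were examined in the frontal cortex of GFAP-IL6 mice, a model of brain inflammation. The genes were Anxa1, Anxa2, Anxa3, Anxa4, Anxa5, Anxa6, Anxa7, Anxa11, S100a4 and S100a6. They were chosen by symbol, and these 10 were drawn from a table of 33000 genes in which each of these symbols occurred once. TruSeq libraries from 3 mice homozygous for GFAP-IL6 were compared with libraries from 3 wild-type (WT) mice. All mice were on C57BL/6 and aged 3 months, and WT mice carried no transgene. The transgene places Il6, an inflammatory cytokine, under the promoter of Gfap, which is active in astrocytes. The TruSeq libraries served as the reference for the 3’Pool-seq protocol, and the comparison of the genotypes was the test of differential expression.

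Annexins are calcium-dependent proteins that bind negatively charged phospholipids and link membranes to each other and to the cytoskeleton. S100 proteins are small calcium-binding proteins that act as dimers, and several of them bind the amino-terminal tail of an annexin. In brain, annexins and S100a6 are known from astrocytes, microglia, vessels and meninges, and some are raised in reactive glia.

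None of the annexins or S100 genes passed an adjusted p of 0.05 between the genotypes by edgeR. Of the 10 genes, 9 passed the filter on low counts and S100a4 did not. The count of 0 of 9 stood beside 2.86% of all 15341 genes tested, 2.65% as higher and 0.209% as lower. With an absolute log2 fold change over 1 as a second condition, 0 of 9 were called beside 1.38% of all genes, 1.36% as higher and 0.013% as lower. At an unadjusted p under 0.05 there were 2 of 9, Anxa2 and Anxa3, beside 20.5% of all genes. At an adjusted p of 0.05, DESeq2, with or without its prior on fold changes, called 1 of the 9, Anxa2, and limma-voom called 0.

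The median log2 fold change over the 9 genes was 0.0996, with 6 above 0 and 3 below, beside a median of -0.0038 and 49.4% above 0 over all genes tested. On the CPM scale described below, none of the 9 had all GFAP-IL6 libraries on one side of all WT libraries. Over all genes tested, such separation in CPM held for 26.5%, 13.8% as higher and 12.7% as lower. On the TPM scale, also described below, Anxa2 and Anxa3 were separate. The share of all genes separate in TPM was not computed. The 95% interval of the log2 fold change lay within -1 and 1, a 2-fold change in either direction, for 7 of the 9, beside 89% of all genes. Anxa1 and Anxa2 were the exceptions.

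The libraries held between 7559524 counts in GFAP-IL6 replicate 2 and 16877001 in WT replicate 2, and each GFAP-IL6 library was shallower than each WT library. The 10 genes took between 2291 and 5039 counts of a library. For Il6, WT libraries held 0, 2 and 0 counts, against 12, 10 and 24 for GFAP-IL6, and these counts do not separate the transgene from the endogenous gene. All 8 neuronal markers were detected, with summed levels of 6080 to 7460 CPM across libraries. In bulk tissue, fewer cells of a type and less RNA per cell cannot be told apart. Levels within a gene are given in CPM, counts per 1000000 of the TMM-adjusted library total, and levels between genes in transcripts per 1000000 (TPM), which divide by gene length.

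**Figure D1:**
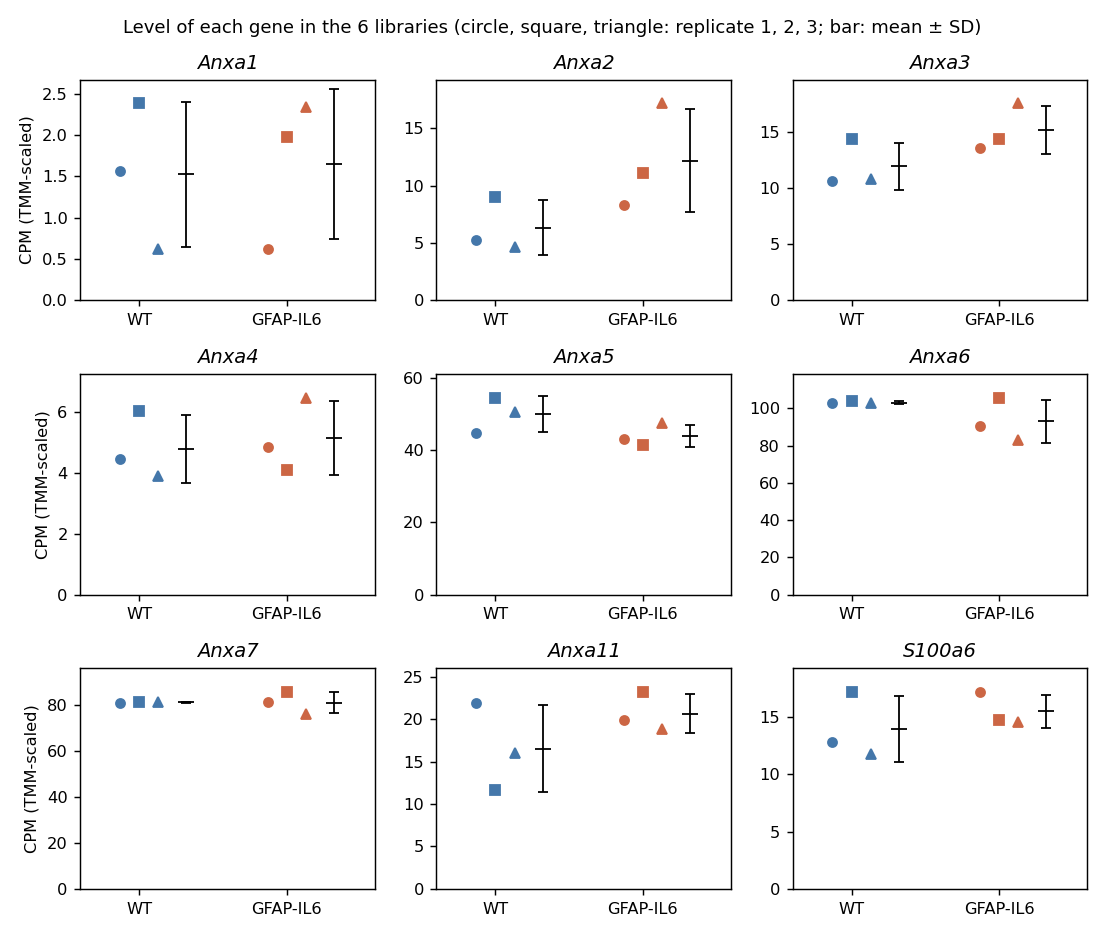
Level in CPM (y axis from 0) of the 9 genes that passed the filter, in 3 WT and 3 GFAP-IL6 libraries, with the mean and SD beside the points. The libraries of both groups overlap in every panel, and the distance between group means is widest, relative to the level, for Anxa2.

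Per length, Anxa6 was the most abundant of these genes in WT cortex, at 115 ± 2.66 TPM (SD, n = 3). Anxa5 followed at 79.8 ± 5.73 TPM and Anxa7 at 75.9 ± 2.11 TPM (SD, n = 3 each), and the library ranges of Anxa5 and Anxa7 overlapped while that of Anxa6 lay above both. S100a6 stood at 47.8 ± 8.64 TPM, apart from the genes above and below it. Anxa11 at 16.9 ± 5.70, Anxa3 at 12.5 ± 1.84 and Anxa2 at 12.1 ± 4.21 TPM (SD, n = 3 each) came next, with overlap between each neighbouring pair. Anxa4 at 6.29 ± 1.30 and Anxa1 at 2.52 ± 1.40 TPM (SD, n = 3 each) were the lowest of the 9, and their ranges did not overlap.

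In GFAP-IL6 cortex, the mean of Anxa7 lay above that of Anxa5, and the mean of Anxa2 above those of Anxa11 and Anxa3, but the library ranges of Anxa7 and Anxa5, and of Anxa2 with both Anxa11 and Anxa3, overlapped. Anxa6 was again first, at 109 ± 13.3 TPM, followed by Anxa7 at 79.7 ± 4.58, Anxa5 at 74.0 ± 5.28 and S100a6 at 56.0 ± 5.78 TPM (SD, n = 3 each). Anxa2 came next at 24.6 ± 8.997 TPM (SD, n = 3), and Anxa11 followed at 22.1 ± 2.34 TPM (SD, n = 3). Anxa6, Anxa5 and Anxa7 together held most of the annexin transcripts in both groups, with 35.8%, 24.8% and 23.6% of the summed TPM of the 8 annexins in WT. In GFAP-IL6 these shares were 32.4%, 22.0% and 23.7%. Anxa2 took 3.25%, 5.18% and 2.83% of the sum in the WT libraries, against 5.26%, 6.38% and 10.2% in those of GFAP-IL6. The groups were separate by a margin of 5.18% to 5.26%, and those of Anxa3 by 4.50% to 4.56%, while the shares of the other 6 annexins overlapped. The summed level of the 8 annexins was 321 ± 5.60 TPM in WT and 336 ± 12.4 TPM in GFAP-IL6 (SD, n = 3 each). The exact permutation test, two-sided, gave a p of 0.2, where 0.1 is the smallest p that 3 against 3 libraries allow. TPM carried no TMM scaling, and for each of the 8 annexins the log2 ratio of group means was higher in TPM than in CPM. For Anxa7 it was 0.07 in TPM and -0.000827 in CPM, and for Anxa5 -0.109 and -0.183. The summed level was not compared in CPM, so its difference in TPM cannot be separated from the scale.

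Anxa2 (ENSMUSG00000032231.12, GRCm38 chromosome 9, 69453620 to 69491795, plus strand) encodes an annexin that forms a complex with S100a10 and binds plasminogen at the cell surface. Reads counted on it numbered 61, 152 and 74 in the WT libraries, against 93, 84 and 154 in those of GFAP-IL6. Scaled to the libraries, these were 5.31, 9.06 and 4.64 CPM in WT and 8.33, 11.1 and 17.2 CPM in GFAP-IL6. WT replicate 2, the highest WT library, lay above GFAP-IL6 replicate 1, the lowest of the other group, so that the groups overlapped in CPM by this one pair of libraries. In TPM the same pair was at 16.87 and 16.98, so that the groups were just separate and the overlap depended on the scale. The mean was 6.33 ± 2.38 CPM in WT and 12.2 ± 4.52 CPM in GFAP-IL6 (SD, n = 3 each). The log2 fold change was 0.92 ± 0.28 (SE), with a 95% interval of 0.31 to 1.53 and an edgeR adjusted p of 0.107. An absolute log2 fold change of this size or more was found in 2.5% of all genes tested.

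The call on Anxa2 turned on the tool, the filter and single libraries. DESeq2 gave an adjusted p of 0.0334 without its prior and 0.0332 with it, and edgeR without the filter on low counts gave 0.000751. Without WT replicate 2, the edgeR log2 fold change was 1.29 with an adjusted p of 0.00677. Without GFAP-IL6 replicate 3 it was 0.588 with an adjusted p of 0.418. The value was above 0 in all 15 alternatives and past the threshold in 4 of them.

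**Figure D2:**
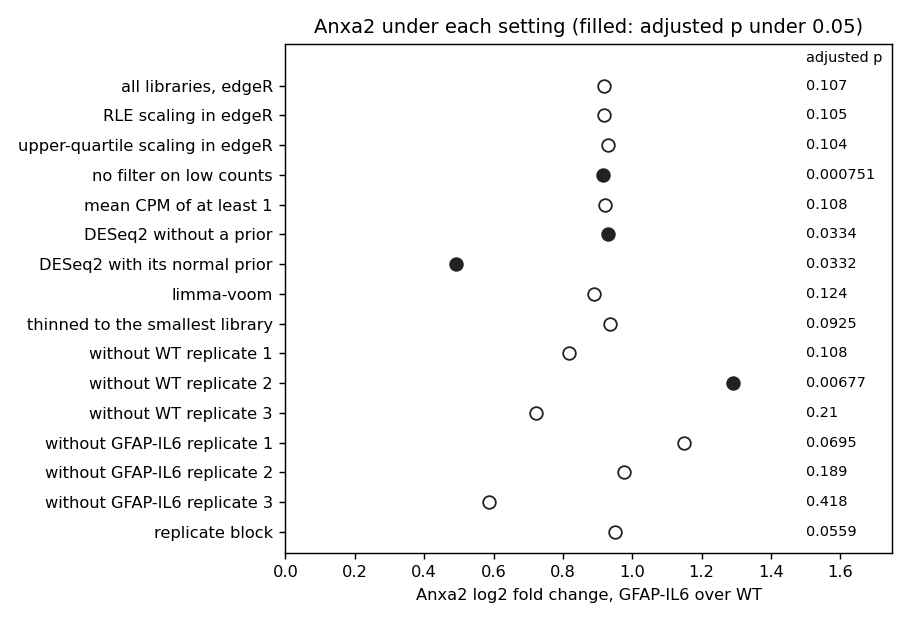
Log2 fold change of Anxa2 between GFAP-IL6 and WT (x axis) with all libraries and under each of the 15 alternatives (y axis), with the adjusted p at the right and filled points where it was under 0.05. All points lie above 0, between 0.492 and 1.29, and 4 of them are filled.

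S100a10, the partner of Anxa2, had 18.5, 23.1 and 17.0 CPM in WT and 15.5, 16.6 and 19.2 CPM in GFAP-IL6. For S100a10 the log2 fold change came to -0.20 ± 0.14 (SE), with an edgeR adjusted p of 0.427. The TPM ratio of S100a10 to Anxa2 within a library was 6.30, 4.61 and 6.61 in WT and 3.36, 2.71 and 2.02 in GFAP-IL6. The ratio was lower in each GFAP-IL6 library than in each WT library, 0.457-fold on average on the log scale. Its exact two-sided permutation p was 0.1, the smallest possible here, and 0.4 after adjustment over the ratios tested. Ahnak, a giant scaffold protein that binds the complex of Anxa2 and S100a10, had 32.7, 29.6 and 30.0 CPM in WT and 54.4, 59.6 and 66.6 CPM in GFAP-IL6, and the groups did not overlap. It rose by a log2 fold change of 0.97 ± 0.095 (SE; edgeR adjusted p of 8.2e-05). Ahnak was the one gene of the partner list past the threshold.

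**Figure D3:**
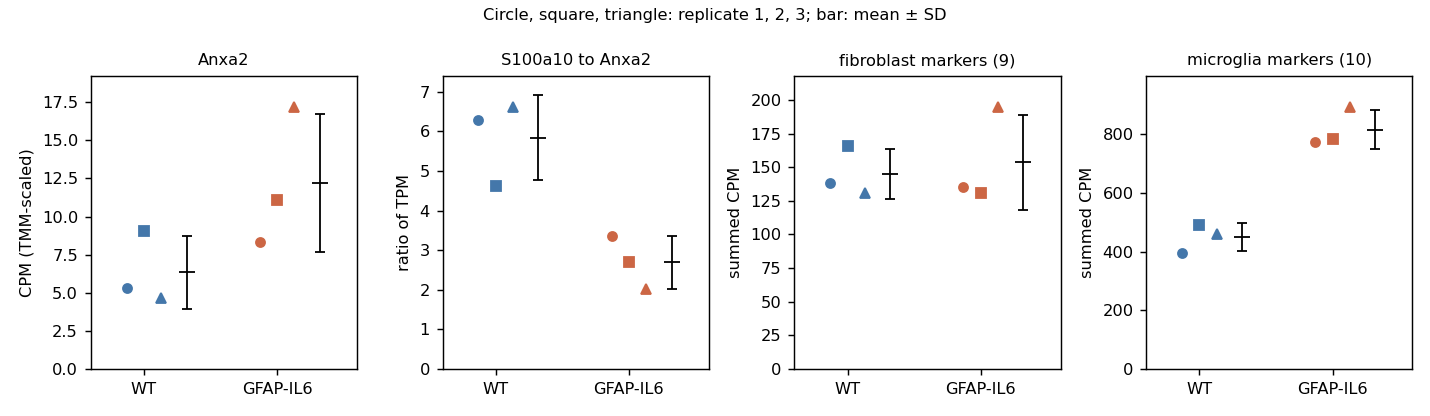
Anxa2 level in CPM, TPM ratio of S100a10 to Anxa2, summed CPM of 9 fibroblast markers and summed CPM of 10 microglia markers (y axes from 0) in each WT and GFAP-IL6 library, with mean and SD. The groups overlap for Anxa2 and the fibroblast markers and are separate for the ratio and the microglia markers.

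Markers of the cell types that the dissected tissue could hold were set beside these values. Summed levels of 9 markers of meningeal and perivascular fibroblasts were 138, 166 and 131 CPM in WT and 135, 131 and 195 CPM in GFAP-IL6. None of the 9 was at 0 in all libraries. Pdgfra, with means of 53.6 CPM in WT and 57.2 CPM in GFAP-IL6, was the largest part of this sum. Igf2 was next, with means of 44.9 and 45.7 CPM. Within WT, Pdgfra was highest in replicate 3 and Igf2 in replicate 2. The fibroblast sum was highest in WT replicate 2 and GFAP-IL6 replicate 3. WT replicate 2 was the highest WT library for 8 of the 9 annexin and S100 genes. Both libraries were the highest of their groups for 5 of them, Anxa1 to Anxa5. The share of all genes that were highest in these libraries was not computed. The summed markers of microglia, of oligodendrocytes, of pericytes and smooth muscle, and of leukocytes were also highest in these libraries. Striatal, ependymal and red blood cell sums were highest in WT replicate 2 and in GFAP-IL6 replicate 2. The striatal sums were 153, 284 and 159 CPM in WT and 143, 171 and 131 CPM in GFAP-IL6. Choroid plexus sums were 2.52, 7.21 and 67.96 CPM in WT and 4.39, 12.5 and 3.90 CPM in GFAP-IL6, with WT replicate 3 far above the other libraries. The summed markers of microglia and macrophages lay between 396 and 491 CPM in WT and between 773 and 892 CPM in GFAP-IL6. Of these 10 markers, 8 were past an adjusted p of 0.05 and higher, while P2ry12 had a log2 fold change of -0.27 (edgeR adjusted p of 0.291). Over all genes tested, 2.65% were called as higher and 0.209% as lower. Endothelial markers lay between 189 and 210 CPM in WT and between 288 and 334 CPM in GFAP-IL6, with 5 of 8 past the threshold and higher, and pericyte and smooth muscle markers between 153 and 182 and between 205 and 241 CPM, with 1 of 7. Markers of neutrophils, lymphocytes and monocytes summed to at most 2.79 CPM in any library, and 0 of these 10 passed the filter. The neuronal markers were lower in each GFAP-IL6 library, at 6080 to 7010 CPM, than in each WT library, at 7060 to 7460 CPM, with 0 of 8 past the threshold. Astrocyte markers lay between 5280 and 6630 CPM in WT and between 6230 and 7550 CPM in GFAP-IL6, so the groups overlapped. Of these 9 markers, 5 were higher and 4 lower, and Gfap alone was past the threshold. Gfap rose by a log2 fold change of 2.84 (edgeR adjusted p of 5.49e-06), without overlap of the groups. Slc1a2 made up most of the astrocyte sum, with means of 3633 CPM in WT and 4012 CPM in GFAP-IL6. The part of these cell types in the levels of the annexins was not tested. Exact two-sided permutation p values were 0.1, or 0.24 when adjusted over the 12 marker lists, for the microglial, endothelial, pericyte, neuronal and leukocyte sums. They were 0.9 for the fibroblast sum, 0.3 for astrocytes, striatum and red blood cells, 0.6 for oligodendrocytes, 0.7 for choroid plexus and 1 for ependymal cells.

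Anxa1 (ENSMUSG00000024659.12, chromosome 19, 20373428 to 20390944, minus strand) encodes an annexin induced by glucocorticoids that dampens inflammation through formyl peptide receptors. It was among the least abundant genes tested here, where WT libraries held 18, 40 and 10 counts and GFAP-IL6 libraries held 7, 15 and 21. These corresponded to 1.57, 2.38 and 0.627 CPM in WT and 0.627, 1.98 and 2.34 CPM in GFAP-IL6, so that each group held both high and low libraries. GFAP-IL6 differed from WT by a log2 fold change of 0.047 ± 0.51 (SE), with a 95% interval of -1.05 to 1.15, which includes a 2-fold difference in either direction. Its coefficient of variation was 57.6% in WT and 54.8% in GFAP-IL6, beside 24.5% and 29.3% from counting error alone. Its receptor Fpr1 had 3 to 7 counts per library, Fpr2 had 0 to 3, and S100a11, which binds its tail, had 3 to 11. None of these 3 passed the filter. The TPM ratio of S100a11 to Anxa1 ranged from 0.901 to 1.64 in WT and from 0.655 to 3.28 in GFAP-IL6 (exact two-sided permutation p of 0.9).

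Anxa3 (ENSMUSG00000029484.10, chromosome 5, 96793339 to 96845966, plus strand) encodes an annexin known from neutrophils and microglia. Its levels were 10.6, 14.3 and 10.8 CPM in WT and 13.5, 14.4 and 17.5 CPM in GFAP-IL6. WT replicate 2 was above GFAP-IL6 replicate 1 and the other WT libraries were below all of the other group. In TPM, WT replicate 2 was at 14.65 and GFAP-IL6 replicate 1 at 15.17, and the groups were separate. For Anxa3 this gave a log2 fold change of 0.34 ± 0.15 (SE), with a 95% interval of 0.0041 to 0.67 and an edgeR adjusted p of 0.240. Anxa4 (ENSMUSG00000029994.15, chromosome 6, 86736840 to 86793584, minus strand), best known from epithelia, was at 3.89 to 6.02 CPM in WT and 4.09 to 6.47 CPM in GFAP-IL6. For Anxa4 the log2 fold change came to 0.0996 ± 0.23 (SE), with an interval of -0.40 to 0.60.

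Anxa5 (ENSMUSG00000027712.11, chromosome 3, 36448923 to 36475894, minus strand) encodes the annexin whose protein is used to stain phosphatidylserine on dying cells. Its levels were 44.5, 54.5 and 50.4 CPM in WT and 43.0, 41.3 and 47.4 CPM in GFAP-IL6. WT replicate 1 lay below GFAP-IL6 replicate 3, and the other WT libraries lay above all GFAP-IL6 libraries. Between the groups, the log2 fold change of Anxa5 was -0.19 ± 0.096 (SE), with a 95% interval of -0.39 to 0.024 and an edgeR adjusted p of 0.296.

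Anxa6 (ENSMUSG00000018340.11, chromosome 11, 54979108 to 55033445, minus strand), whose protein carries a duplicated annexin core, had 103, 104 and 103 CPM in WT and 90.7, 106 and 82.8 CPM in GFAP-IL6. Its coefficient of variation was 0.713% in WT and 12.5% in GFAP-IL6, beside about 2.6% and 3.45% from counting error alone. Its log2 fold change came to -0.15 ± 0.094 (SE), with a 95% interval of -0.35 to 0.055. Anxa7 (ENSMUSG00000021814.14, chromosome 14, 20455260 to 20480133, minus strand), known for calcium-driven membrane fusion, had the narrowest interval of the 9 genes. Its levels were 80.8, 81.1 and 81.1 CPM in WT and 81.1, 85.6 and 76.1 CPM in GFAP-IL6. The log2 fold change was -0.0014 ± 0.079 (SE), and the interval of -0.17 to 0.17 corresponds to folds of 0.887 to 1.13.

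Anxa11 (ENSMUSG00000021866.13, chromosome 14, 25842156 to 25886804, plus strand) encodes an annexin with a long tail that tethers RNA granules to lysosomes. Its levels were 21.8, 11.7 and 15.99 CPM in WT and 19.9, 23.2 and 18.8 CPM in GFAP-IL6. WT replicate 1 lay among the GFAP-IL6 libraries, while the other WT libraries lay below them. The log2 fold change was 0.34 ± 0.19 (SE), with a 95% interval of -0.068 to 0.74 and an edgeR adjusted p of 0.326. Without WT replicate 1 it was 0.575 with an adjusted p of 0.0443, whereas the lowest value over the omitted libraries was 0.134. Exons of the antisense gene Anxa11os cover 2.73% of the exon bases of Anxa11, and the strand setting of the counting is unknown. Anxa11os, which was singled out after its values were seen, had 4.44, 1.25 and 2.82 CPM in WT and 3.22, 4.09 and 3.34 CPM in GFAP-IL6, and WT replicate 2 was the lowest library for both genes.

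Pdcd6, a calcium sensor that binds Anxa7 and Anxa11, had 46.8 ± 4.33 CPM in WT and 42.2 ± 1.21 CPM in GFAP-IL6 (SD, n = 3 each; edgeR adjusted p of 0.356). Its TPM ratio to Anxa7 was between 1.05 and 1.24 in WT and between 0.989 and 1.05 in GFAP-IL6 (exact two-sided permutation p of 0.2). The ratio to Anxa11 was between 3.56 and 7.92 in WT and between 3.35 and 3.90 in GFAP-IL6 (exact two-sided permutation p of 0.3). After adjustment over the ratios tested, both values were 0.4.

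S100a6 (ENSMUSG00000001025.6, chromosome 3, 90612882 to 90624181, plus strand), also named calcyclin, had 12.9, 17.2 and 11.8 CPM in WT and 17.2, 14.8 and 14.6 CPM in GFAP-IL6. The highest libraries of both groups were at the same level, and the other WT libraries lay below all of GFAP-IL6. The log2 fold change was 0.15 ± 0.15 (SE), with a 95% interval of -0.18 to 0.48 and an edgeR adjusted p of 0.596. Cacybp, the calcyclin-binding protein, had 67.9, 94.1 and 71.8 CPM in WT and 60.4, 67.7 and 63.2 CPM in GFAP-IL6. Its groups did not overlap, by a small margin, and its log2 fold change of -0.29 ± 0.12 (SE) had an edgeR adjusted p of 0.188.

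S100a4 (ENSMUSG00000001020.8, chromosome 3, 90603771 to 90606045, plus strand) encodes a protein of migrating cells and fibroblasts that binds the heavy chain of non-muscle myosin. It had 1 count in WT replicate 2 and 0 counts in the other 5 libraries, under the floor of 3 counts taken as the limit of detection, which amounts to 0.179 to 0.396 CPM across libraries. No fold change and no ratio to S100a6 was computed. In GENCODE M21, 51.7% of its exon bases are shared with Gm42674, a gene on the same strand. Per the study's methods the counts were made with an earlier GENCODE release, and they do not list Gm42674. Reads that fall on 2 genes can be left out of such counts. Whether this happened here is unknown, so the level of S100a4 is uncertain. Myh9, the myosin heavy chain that S100a4 binds, had 124, 86.8 and 118 CPM in WT and 147, 149 and 157 CPM in GFAP-IL6. The highest WT library lay below the lowest of GFAP-IL6, with a log2 fold change of 0.46 ± 0.12 (SE) and an edgeR adjusted p of 0.0576. DESeq2 without its prior gave an adjusted p of 0.0119 for Myh9.

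**Figure D4:**
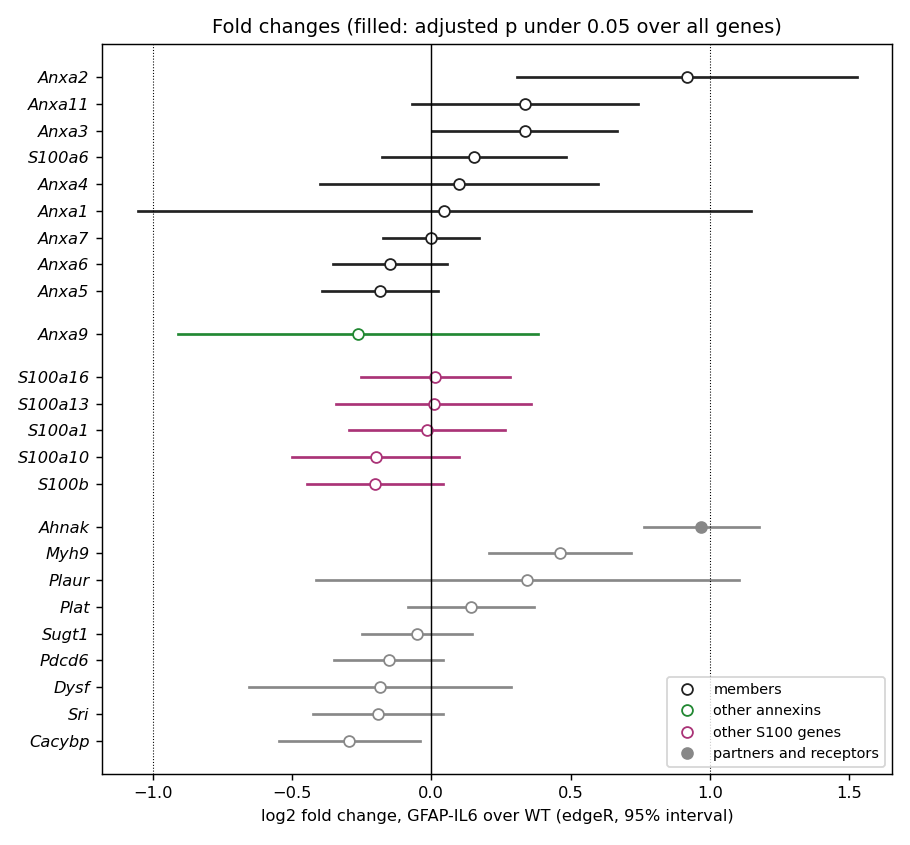
Log2 fold change between GFAP-IL6 and WT with its 95% interval (x axis) for the 9 annexin and S100 genes, other annexins, other S100 genes, and partners and receptors that passed the filter (y axis), with filled points where the adjusted p was under 0.05. Ahnak alone is filled, and the intervals of Anxa2, Anxa1, Ahnak and Plaur cross the dotted line at 1, that of Anxa1 also the line at -1.

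The rest of both families showed 0 calls by edgeR. Of the 4 other annexins, Anxa9 alone passed the filter, with a log2 fold change of -0.26 ± 0.30 (SE), while Anxa8 had 1 to 8 counts per library, Anxa13 had 0 to 3 and Anxa10 had 0 or 1. Of 14 other S100 genes, 5 passed the filter, and 0 of these 5 had an unadjusted p under 0.05. S100b, an astrocyte protein, was the most abundant of them per length, at 222 ± 26.3 TPM in WT, against 204 ± 18.8 TPM in GFAP-IL6 (SD, n = 3 each). S100a1, S100a13 and S100a16 had log2 fold changes of -0.016, 0.0093 and 0.015. S100a8 and S100a9, which form the calprotectin of neutrophils, had at most 4 counts in any library. Among the 13 partners and receptors, 9 passed the filter and 1 of them, Ahnak, was called, beside 2.65% of all genes called as higher.

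The 5 genes whose levels over the 6 libraries were most like those of Anxa2 were Rhoj, Emp1, Clic1, Ppef2 and Smagp, at root mean square differences of 0.194 to 0.215 on the log2 scale, beside a median of 0.761 over all genes tested. Rhoj had 2.70, 3.28 and 2.51 CPM in WT and 4.57, 5.54 and 8.69 CPM in GFAP-IL6, with an edgeR adjusted p of 0.0320. Clic1 had 6.79, 8.76 and 6.77 CPM in WT and 10.6, 12 and 16.9 CPM in GFAP-IL6, with an edgeR adjusted p of 0.0368. The groups were separate in both genes. Emp1, Ppef2 and Smagp had log2 fold changes of 0.90, 1.53 and 1.16, with edgeR adjusted p values of 0.147, 0.0948 and 0.125. These genes were chosen for their likeness over the same libraries, so a shared pattern between them and Anxa2 is given by the choice. For Anxa3 the 5 nearest genes were Rlbp1, Fgf2, Chil1, Nkd2 and Emp2, at differences of 0.042 to 0.0782 beside a median of 0.343, and the edgeR adjusted p values of these 5 ranged from 0.153 to 0.330.

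Promoter windows from RefSeq (GRCm38.p6, 250 bases before to 50 after the start of a gene) were matched by symbol for 8 of the 10 genes, all but Anxa3 and Anxa6. The motif TTCNNNGAA, which reads the same on both strands and is bound by STAT factors such as those that IL6 activates, occurred in 0 of the 8, beside 9.55% of all genes with a window. This says only that these letters are not in these windows.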

How the data were processed

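Counts per gene were deposited by the authors as one table for frontal cortex libraries made with the TruSeq mRNA kit, with a length in bases per gene. Per the study's methods, reads were aligned to mm10 with STAR 2.4 and counted over GENCODE genes by featureCounts, and the strand setting was not given in the sources used here. The submitters' processing notes name hg19, a human build, for these mouse libraries. The series' design text names another number of replicates than the 3 per group analysed here.

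Counts were tested with edgeR 4.0.16 (quasi-likelihood F-test, TMM scaling, filterByExpr, group only) in R 4.3.3, with p-values adjusted by Benjamini-Hochberg across all 15341 genes kept. Standard errors were derived from the F statistic. DESeq2 1.42.0, limma 3.58.1 (voom), other scalings and filters, thinning, a replicate block and the omission of each library were alternatives. The fits were tested on simulated data. Groups and replicate numbers came from the titles. Ratios and marker sums were compared by exact two-sided permutation tests. Gene positions came from GENCODE M21 (GRCm38). The planned description of protein sequences was not carried out, since no protein table was used here.

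The 10 genes, the lists and the tests were chosen with earlier results of these data known. All 10 are named, with the family and partner lists, and the 5 genes most like each of the 2 members with the smallest adjusted p. Likeness was the root mean square difference of log2(CPM + 0.5), centred on the WT mean. Floors and counts cover counting error only, since reads carried no molecular identifiers.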

Additional observations from a re-analysis of the deposited data

How the results depend on the processing

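Over 15 alternatives, the number of annexin and S100 genes past an adjusted p of 0.05 was 1, in place of 0, without the low-count filter, with DESeq2 without its prior and with DESeq2 with its prior, where the gene was Anxa2. With each library left out in turn it ranged from 0 to 1, with Anxa2 called without WT replicate 2 and Anxa11 without WT replicate 1, and the number that also passed the fold threshold ranged from 0 to 1. The cause was not tested. Of the other annexins, S100 genes and partners, 2 were called in place of 1 without the filter, with DESeq2 with and without its prior, after thinning to the smallest library, and with the replicate block, and 1 to 2 over the fits that left out a library. In each case the added gene was Myh9. Log2 fold changes changed sign in 9 of 135 pairs of gene and alternative. Anxa7 was at 0.00542 with upper-quartile scaling, 0.0014 with a mean CPM of at least 1 and 0.0149 after thinning. Leaving out a library gave -0.35 to 0.596 for Anxa1, -0.0901 to 0.315 for Anxa4, -0.0424 to 0.0436 for Anxa7 and -0.471 to 0.69 for the log2 ratio of S100a11 to Anxa1. It gave -0.124 to 0.19 for the summed fibroblast markers, -0.45 to 0.0624 for ependymal and -2.64 to 0.512 for choroid plexus markers. Calls over all genes were 439, and 1154 without the filter, 1061 without WT replicate 1, and 282 and 187 without GFAP-IL6 replicates 2 and 3. The low counts of Anxa1 and S100a4 limit the precision of their levels.

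The replicate numbers were not treated as pairs. Deviations from group means correlated at 0.112, 0.0172 and 0.0351 for replicates 1, 2 and 3, and 4 of 6 libraries correlated best with their own number. With the replicate block, Anxa2 had a log2 fold change of 0.951 with an adjusted p of 0.0559, 0 annexin and S100 genes were called, and the calls over all genes went from 439 to 750.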
